A study of Homo sapiens with 8 samples.

Results

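MARCHF4, PEAR1, TNFRSF12A, CCBE1, CAPN5 and IL3RA are the 6 genes described here, of 60664 genes counted in A549 cells, an established human lung adenocarcinoma line. They were picked from measured values, for the largest rises or falls with AX-0085, given alone or added to interferon-γ (IFN-γ), so their differences with AX-0085 are given as a description, with no test. All 6 were matched by Ensembl identifier, and all 6 were among the 15066 genes that passed the filter on low counts. RNA was measured in 8 libraries, 2 in each of 4 groups: untreated cells, cells given AX-0085, cells given IFN-γ, and cells given IFN-γ and AX-0085. The labels give IFN-γ as 20 ng with no volume, and the study's methods state 20 ng/mL as its usual concentration. AX-0085, a kinase inhibitor, was added 24 h later to 0.5 µM, and the cells were harvested after another 24 h. All groups are of this 1 cell line, and the labels name no vehicle for the groups without AX-0085. The labels do not say that the 2 libraries of a group came from separate cultures, so p-values measure only the spread between these samples, which may be technical.

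The 6 genes are not usually grouped in 1 pathway. TNFRSF12A (Fn14) is the receptor of the cytokine TWEAK and acts through TRAF adaptors on NF-κB, PEAR1 is a transmembrane receptor known from platelet contacts, and IL3RA is the α chain of the interleukin-3 receptor, which signals together with the shared β chain CSF2RB. MARCHF4 is a membrane-bound RING-type ubiquitin ligase, CCBE1 is a secreted protein that promotes the proteolytic maturation of the lymphatic growth factor VEGF-C, and CAPN5 is a calcium-dependent cysteine protease of the calpain family. IFN-γ signals through JAK kinases, and its target genes often carry GAS elements in their promoters.

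MARCHF4 (ENSG00000144583) lies on the minus strand at chr2:216257865-216372483 of GRCh38 and has 4 exons in its canonical transcript. PEAR1 (ENSG00000187800) is on the plus strand at chr1:156893698-156916429, with 23 exons. TNFRSF12A (ENSG00000006327) is a compact gene of 3.94 kb with 4 exons, on the plus strand at chr16:3018445-3022383. Among its exon bases, 5.11% lie inside CLDN6 on the other strand. CCBE1 (ENSG00000183287), of 266.7 kb and 11 exons, is on the minus strand at chr18:59430939-59697662, and 6.02% of its exon bases lie inside a gene on the other strand. CAPN5 (ENSG00000149260) has 13 exons on the plus strand at chr11:77066961-77126155. IL3RA (ENSG00000185291) has 12 exons on the plus strand at chrX:1336616-1382689, in the pseudoautosomal region, which X and Y share. The sources used here do not state how reads with several matches were treated, or whether counting used strand, so its level is uncertain, and reads of overlapping genes on opposite strands may not be separated.

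The promoters of the 4 members with an entry in the RefSeq table used here (GRCh38.p14) are shown because members that moved together can be compared in their start regions. Each runs 5′ to 3′ on the gene's strand, from 250 bases before the RefSeq start to 50 after it. Capitals mark the motif matches described after the sequences. For PEAR1, CCBE1 and IL3RA the RefSeq start differs from the 5′ end of the gene positions given above. Motif distances are counted from the RefSeq start. They lie at chr2:216372434-216372733 (MARCHF4), chr1:156893468-156893767 (PEAR1), chr18:59697374-59697673 (CCBE1) and chrX:1336535-1336834 (IL3RA).
MARCHF4: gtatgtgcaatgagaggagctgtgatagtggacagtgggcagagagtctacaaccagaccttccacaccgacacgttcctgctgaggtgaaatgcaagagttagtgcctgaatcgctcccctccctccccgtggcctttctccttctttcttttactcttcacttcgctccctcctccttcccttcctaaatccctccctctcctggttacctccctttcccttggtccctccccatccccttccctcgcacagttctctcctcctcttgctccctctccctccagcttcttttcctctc
PEAR1: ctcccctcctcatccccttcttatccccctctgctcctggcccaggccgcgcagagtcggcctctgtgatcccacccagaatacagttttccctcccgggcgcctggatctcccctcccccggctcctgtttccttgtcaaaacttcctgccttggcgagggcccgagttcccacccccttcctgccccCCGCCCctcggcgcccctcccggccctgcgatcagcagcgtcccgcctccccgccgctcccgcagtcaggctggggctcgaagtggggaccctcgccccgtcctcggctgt
CCBE1: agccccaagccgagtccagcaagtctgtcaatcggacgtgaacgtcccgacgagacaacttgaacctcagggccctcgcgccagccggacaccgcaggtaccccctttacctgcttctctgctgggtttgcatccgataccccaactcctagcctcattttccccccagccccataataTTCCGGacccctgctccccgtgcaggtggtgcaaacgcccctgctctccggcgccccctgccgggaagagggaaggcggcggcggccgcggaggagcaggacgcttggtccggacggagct
IL3RA: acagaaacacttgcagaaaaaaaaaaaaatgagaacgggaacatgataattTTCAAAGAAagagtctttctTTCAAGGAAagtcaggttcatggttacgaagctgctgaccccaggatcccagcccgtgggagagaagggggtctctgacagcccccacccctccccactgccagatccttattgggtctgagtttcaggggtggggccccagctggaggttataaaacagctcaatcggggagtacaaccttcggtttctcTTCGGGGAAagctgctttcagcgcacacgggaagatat

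Both strands of these promoters were searched for 7 motifs: AP-1 (TGANTCA), GAS (TTCNNNGAA), CRE (TGACGTCA), an ETS core (CCGGAA), a GC box (GGGCGG), a TEAD site (GGAATG) and the CArG box. The promoter of MARCHF4 held none of them. PEAR1 had a GC box 61 bases before the start, a motif found in 45.0% of all 34960 promoters of the same length. CCBE1 had an ETS core 71 bases before the start, a motif found in 17.3% of promoters. IL3RA had 3 GAS matches, at 199 and 179 bases before the start and 12 bases after it. At least 1 GAS match was found in 7.66% of promoters and 3 or more in 0.0458%, a share computed after the 3 matches in IL3RA were seen. AP-1 matches were found in 7.68% of all promoters, CRE in 1.85%, TEAD in 14.0% and the CArG box in 1.3%. The G and C content was 55.0% for MARCHF4, 70.0% for PEAR1, 65.3% for CCBE1 and 50% for IL3RA, against a median of 58.7% over all promoters. These matches describe the letters only and give no evidence of binding.

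The libraries held 20672828 to 29978251 counts, so that 3 counts, taken as the detection floor, corresponded to 0.0959 to 0.158 CPM, the counts of a gene relative to the library size after edgeR's TMM scaling. Of the 6 epithelial markers examined, 5 had at least 10 counts in every library, EPCAM went down to 7, and their sum was 8821 to 9550 CPM in untreated cells, 5759 to 6089 with AX-0085, 6512 to 7398 with IFN-γ and 7221 to 7304 with both agents. Nearly all of the untreated sum was KRT7, KRT8 and KRT18, at means of 2533, 4246 and 2325 CPM. The markers did not move together. Log2 fold changes with IFN-γ alone were 0.74 for KRT7, −1.40 for KRT8 and −1.09 for KRT18. They were −2.16 for KRT19, −1.73 for CDH1 and −3.18 for EPCAM. With AX-0085 alone the values were 0.05 for KRT7, −0.91 for KRT8 and −1.30 for KRT18. Those of KRT19, CDH1 and EPCAM with AX-0085 alone were 0.10, 0.52 and 1.33. Of the leukocyte markers, CD3E and CD68 had no counts (CD68 lies wholly inside other genes) and PTPRC had at most 1 count in a library. Mitochondrial transcripts took 2.72% to 3.55% of counts in untreated cells, 4.12% to 5.73% with AX-0085, 1.71% to 1.82% with IFN-γ and 2.87% to 3.43% with both agents. The mitochondrial share and the epithelial sum thus moved with the groups, and their part in the results was not tested. edgeR's quasi-likelihood test was run over all 15066 genes, and a gene was called changed where the fold was over 2 (1 on the log2 scale) and the p-value, after Benjamini-Hochberg adjustment, was under 0.05. In bulk RNA, fewer cells expressing a gene and less RNA per cell cannot be told apart.

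MARCHF4, PEAR1, TNFRSF12A and CCBE1 had the 4 largest falls among the 453 genes called lower with AX-0085 alone whose groups did not overlap and whose average log2 CPM was 2 or more. Their log2 fold changes were −3.37 ± 0.18 (SE), −3.32 ± 0.20, −3.24 ± 0.08 and −3.20 ± 0.14, and the first genes outside were FOSL1 at −3.14 and CCN2 at −2.99. Of the 319 genes higher with AX-0085, IL3RA and CAPN5 were the 2nd and 3rd, at 2.71 ± 0.18 and 2.63 ± 0.07. TXNIP, the 1st at 6.60, is not a member, and CHAC1, the next outside, had 2.63. CAPN5 and CHAC1 differed by less than the standard error of CAPN5. Under IFN-γ the order was different: CCBE1 was the 1st and MARCHF4 the 3rd of 768 genes lower with AX-0085, TNFRSF12A the 12th and PEAR1 the 16th, and FOSL1, which is not a member, the 2nd at −5.47. CAPN5 and IL3RA were the 55th and 113th of 974 genes higher with AX-0085 under IFN-γ. Over all tested genes, 12.0% were called with AX-0085 alone (5.62% lower, 6.41% higher) and 24.8% with AX-0085 under IFN-γ (8.28% lower, 16.5% higher). As the rule used these contrasts, the members' calls in them carry no evidence.

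TNFRSF12A, the TWEAK receptor, was the most abundant of the 6 per length of exon in untreated cells. Its level was 128.9 and 144.8 CPM in the untreated libraries, 14.1 and 14.9 CPM with AX-0085, 698.6 and 661.3 CPM with IFN-γ, and 41.0 and 44.5 CPM with both. The 4 groups did not overlap, and the order from lowest to highest was AX-0085, both agents, untreated, IFN-γ. With 2 libraries a group, lack of overlap is a description here and for the other members. With AX-0085 the mean of 14.5 ± 0.54 CPM (SD, n = 2) was below the untreated mean of 136.8 ± 11.2, by 9.44-fold in the edgeR fit, from which all fold differences here are taken. Under IFN-γ the mean was 679.9 ± 26.3 CPM without AX-0085 and 42.7 ± 2.47 CPM with it, a log2 difference of −4.00 ± 0.08.

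PEAR1, the platelet receptor, had a lower level and the same order of groups. The untreated libraries had 9.96 and 9.37 CPM, those with AX-0085 0.956 and 0.979 CPM, those with IFN-γ 33.0 and 43.3 CPM, and those with both agents 2.81 and 2.92 CPM. Again no 2 groups overlapped. The counts behind the AX-0085 values were 24 and 26 reads, well above the floor of 3. AX-0085 alone went with a 9.96-fold lower mean, and AX-0085 under IFN-γ with a 13.4-fold lower mean (log2 −3.74 ± 0.15). The mean with IFN-γ was 38.1 ± 7.24 CPM (SD, n = 2), the widest spread of this gene in a group. PEAR1 is known from platelets, so their markers were examined: PF4, GP9, ITGA2B and PPBP summed to 3.71 to 3.81 CPM in untreated cells, 1.62 to 1.75 with AX-0085, 0.0804 to 0.528 with IFN-γ and 1.66 to 1.73 with both agents, with GP9 and PPBP at 0 everywhere. Nearly all of this sum was ITGA2B, at 3.57 CPM in untreated cells, and other genes cover all exon bases of PPBP and 73.1% of those of PF4, so these markers bear little on platelets, whose part in the PEAR1 values was not tested.

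CCBE1, the secreted factor of VEGF-C maturation, had the widest range of the members that were low with AX-0085. Its untreated libraries had 10.1 and 11.1 CPM, those with AX-0085 0.996 and 1.28 CPM, those with IFN-γ 53.5 and 53.6 CPM, and those with both agents 0.735 and 0.764 CPM. The groups did not overlap, and the lowest was the one given both agents, at 17 and 23 counts. The fold difference of AX-0085 under IFN-γ was 71.2 (log2 −6.15 ± 0.13), and that of AX-0085 alone was 9.20. CCBE1 is known from fibroblasts, and the 4 fibroblast markers summed to 8.90 to 10.6 CPM in untreated cells, 9.08 to 9.48 with AX-0085, 2.93 to 4.33 with IFN-γ and 6.84 to 8.36 with both agents, with COL1A2 at 0 and DCN and LUM at no more than 2 counts. The sum was almost only COL1A1, at 9.69 CPM in untreated cells, and the part of fibroblasts in the CCBE1 values was not tested.

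MARCHF4, the ubiquitin ligase, had the second highest level per length of exon in untreated cells. The untreated libraries had 20.4 and 22.4 CPM, those with AX-0085 2.75 and 1.39 CPM, those with IFN-γ 59.7 and 56.7 CPM, and those with both agents 1.34 and 1.66 CPM. Here AX-0085 alone and both agents overlapped. The 2 AX-0085 libraries differed 1.97-fold, the largest ratio between libraries of a group among the 24 combinations of gene and group, of which the other 23 were under 1.5. AX-0085 alone went with a 10.4-fold lower mean, and AX-0085 under IFN-γ with a 39.2-fold lower mean (log2 −5.29 ± 0.18). Without the first AX-0085 library the former log2 difference was −3.93 in place of −3.37.

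IL3RA, the interleukin-3 receptor chain, was higher with AX-0085. Its libraries had 1.99 and 1.51 CPM without treatment, 11.1 and 12.0 CPM with AX-0085, 2.54 and 1.77 CPM with IFN-γ, and 14.4 and 11.6 CPM with both agents. The levels formed 2 bands, with and without AX-0085, and within each band the groups overlapped. AX-0085 alone went with a 6.53-fold higher mean and AX-0085 under IFN-γ with a 6.20-fold higher mean (log2 2.63 ± 0.18). Plasmacytoid dendritic cells and basophils are known for IL3RA, and of CLEC4C, LILRA4, CPA3 and HDC, 3 of 4 were at 0 in every library, with a sum of at most 0.265 CPM in untreated cells and at most 0.113 CPM with AX-0085. Other genes cover all exon bases of CPA3 and 46.0% of those of LILRA4, so that CLEC4C is the marker at 0 with no such overlap.

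CAPN5, the calpain, was also higher with AX-0085. Its level was 16.6 and 15.9 CPM in untreated libraries, 100.5 and 100.6 CPM with AX-0085, 7.24 and 7.04 CPM with IFN-γ, and 70.3 and 72.3 CPM with both agents. No groups overlapped, and the order was AX-0085, both agents, untreated, IFN-γ from highest to lowest. The mean was 6.18-fold higher with AX-0085 alone and 10.0-fold higher with AX-0085 under IFN-γ, log2 3.32 ± 0.08.

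**Figure D1:**
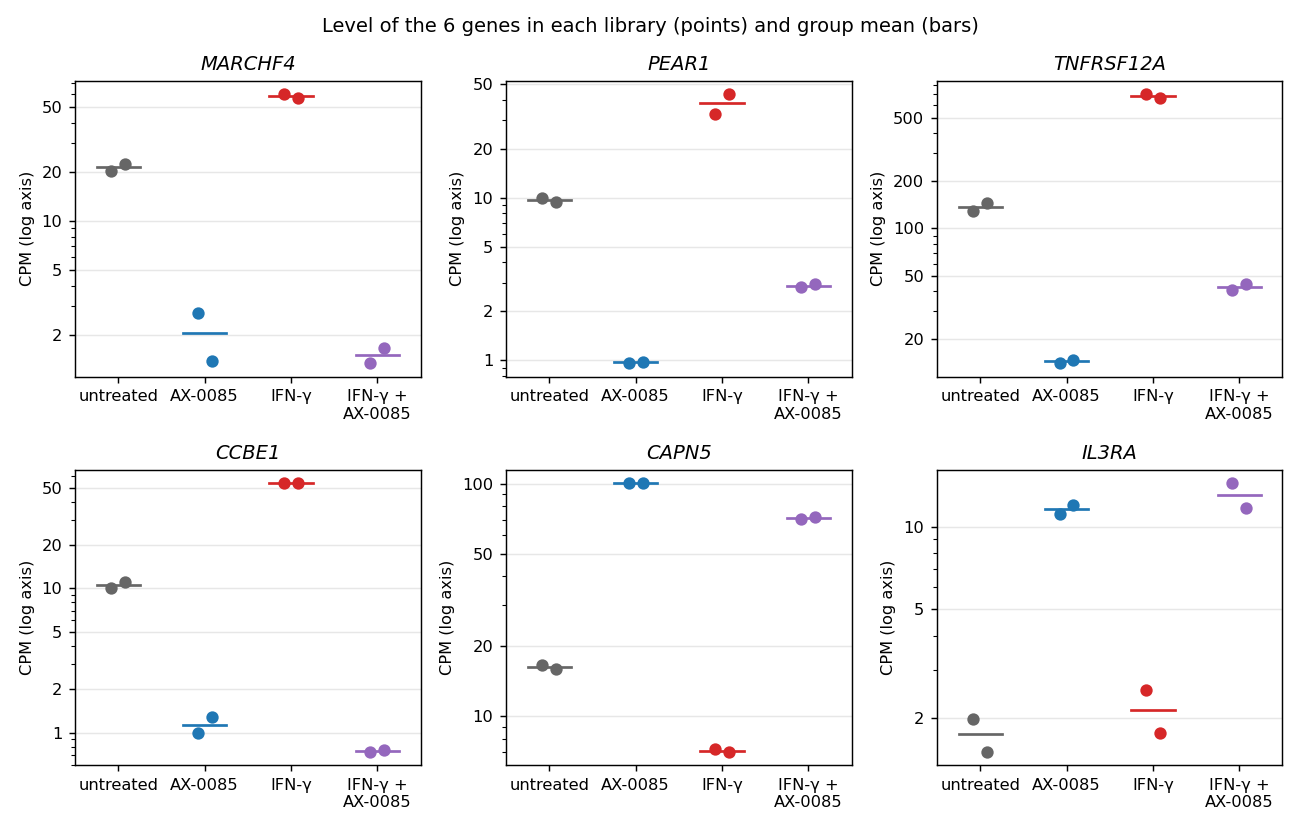
Level of the 6 genes in each library, as CPM on a log axis, with 1 panel for each gene and the 4 treatment groups along the horizontal axis. Points are the 8 libraries and bars are group means. TNFRSF12A, PEAR1, CCBE1 and MARCHF4 are lowest in the 2 groups given AX-0085, and CAPN5 and IL3RA are highest in them.

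Levels between genes were compared as CPM per kb of exon. In untreated cells TNFRSF12A stood at 76.0 CPM per kb, which is the 97.0th percentile of tested genes, followed by MARCHF4 at 4.36 (57.9th), CAPN5 at 2.65 (47.9th), PEAR1 at 1.75 (40.5th), CCBE1 at 1.496 (38.0th) and IL3RA at 1.02 (32.4th). With AX-0085 alone, CAPN5 led at 16.4 CPM per kb (85.4th percentile), followed by TNFRSF12A at 8.04 (71.8th) and IL3RA at 6.76 (68.0th), and CCBE1 was lowest at 0.161 (9.30th). With IFN-γ alone TNFRSF12A reached 377.5 CPM per kb, the 99.4th percentile.

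The effect of IFN-γ was not part of the rule, although each IFN-γ contrast shares libraries with the AX-0085 contrasts that were. A gene picked for a large fall from the IFN-γ libraries tends to be high in them. The members' IFN-γ tests, with and without AX-0085, are therefore not independent of the choice, and their counts are not evidence beyond it. Without AX-0085, 4 of the 6 members rose with IFN-γ, CAPN5 fell and IL3RA did not pass the test, against 27.5% of all tested genes called (10.3% higher and 17.2% lower). CCBE1 rose by 2.35 ± 0.09 on the log2 scale (5.08-fold, edgeR adjusted p = 9.16e-11) and TNFRSF12A by 2.31 ± 0.07 (4.97-fold, adjusted p = 1.30e-11). PEAR1 rose 3.95-fold (log2 1.98 ± 0.12, adjusted p = 9.53e-09) and MARCHF4 2.73-fold (log2 1.45 ± 0.12, adjusted p = 1.99e-07). These rises were larger than the spread between libraries, and the untreated and IFN-γ libraries of each gene did not overlap. With 2 libraries a group an exact permutation test cannot go below p = 0.333, so lack of overlap is only a description. CAPN5 fell by 1.19 ± 0.09 on the log2 scale (edgeR adjusted p = 6.17e-08), also with no overlap. By the adjusted p alone 5 of the 6 passed, against 68.1% of all genes. For IL3RA the log2 fold change was 0.26 ± 0.24, with a 95% interval of −0.27 to 0.79 and an adjusted p of 0.374, and the libraries overlapped.

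With AX-0085 present, 2 of the 6 members rose with IFN-γ, PEAR1 and TNFRSF12A, and none fell by the same rule, against 3.52% of all tested genes called (1.79% higher and 1.73% lower). PEAR1 rose by 1.56 ± 0.25 on the log2 scale (2.95-fold, edgeR adjusted p = 0.000376) and TNFRSF12A by 1.56 ± 0.08 (2.94-fold, adjusted p = 6.02e-08). By the adjusted p alone 3 of the 6 passed, against 34.7% of all genes. The third was CAPN5, with a log2 fold change of −0.50 ± 0.07 and an adjusted p of 9.77e-05 by the same test, which is under the threshold of p but within the 2-fold limit. CCBE1 differed by −0.61 ± 0.24, with a 95% interval of −1.12 to −0.09 and an edgeR adjusted p of 0.0889, and its libraries did not overlap. Its counts were only 25 and 34 with AX-0085 and 23 and 17 with both agents. At such counts the interval may be too narrow. For MARCHF4 the value was −0.47 ± 0.27 (adjusted p = 0.201), and its sign depended on 1 library: without the first AX-0085 library it was 0.09. IL3RA differed by 0.18 ± 0.14 (interval −0.12 to 0.48, adjusted p = 0.336). The intervals of MARCHF4, CCBE1 and IL3RA do not show that IFN-γ left these genes unaltered.

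**Figure D2:**
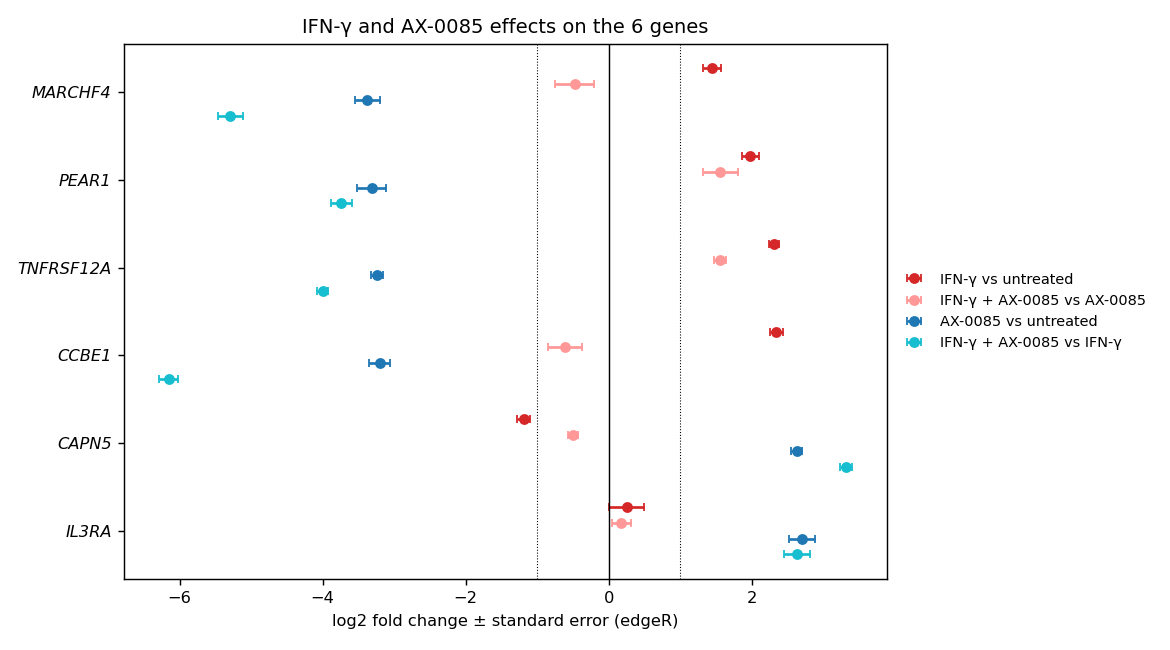
Log2 fold changes of the 6 genes in the 4 contrasts between treatment groups, with standard errors derived from the F statistic of edgeR's test. The AX-0085 contrasts chose the genes and are shown as a description. With IFN-γ alone 4 genes lie above 1 and CAPN5 below −1, and in the presence of AX-0085 only PEAR1 and TNFRSF12A lie above 1.

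The difference of the AX-0085 effect with and without IFN-γ is fixed by the same libraries and is again a description. It was −2.95 ± 0.26 on the log2 scale for CCBE1 and −1.92 ± 0.30 for MARCHF4, against −0.76 ± 0.11 for TNFRSF12A, −0.42 ± 0.29 for PEAR1, 0.69 ± 0.11 for CAPN5 and −0.08 ± 0.28 for IL3RA. For IL3RA the value was below its standard error, and leaving out 1 library at a time moved it between −0.36 and 0.17. For MARCHF4 it was −1.36 without the first AX-0085 library. For PEAR1 it was less than 2 standard errors.

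Over 10130 genes averaging 2 or more in log2 CPM, each member was compared with the others by the root mean square (RMS) difference of their log2 CPM over the 8 libraries, each gene centred on its own mean. PEAR1 and TNFRSF12A were each other's nearest gene in pattern, with an RMS difference of 0.19 over the 8 libraries, which share their treatments in pairs. Their next nearest was CDH4, a cadherin, at 0.44 and 0.45. ETV5, an ETS transcription factor, was the third for PEAR1 (0.44) and BCL2A1, a BCL2-family inhibitor of apoptosis, the third for TNFRSF12A (0.50). MARCHF4 and CCBE1 were near each other at 0.50, with CCN2, a matricellular protein, at 0.44 and 0.52. Other annotated genes cover the whole exon sequence of CCN2, so its counts are uncertain. CXCL5, a neutrophil chemokine, followed for MARCHF4 (0.64) and FOSL1, an AP-1 subunit, for CCBE1 (0.70).

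CAPN5 was nearest to CACNA1D, a calcium channel subunit, with an RMS difference of 0.21. CACNA1D had a mean of 3.04 CPM untreated, 18.4 with AX-0085, 1.76 with IFN-γ and 16.2 with both agents. CYP4F12 and FGL1 followed at 0.32 each. IL3RA was nearest to MUC5AC, a gel-forming mucin, at 0.16, which stood at 118.6 CPM untreated, 698.5 with AX-0085, 130.8 with IFN-γ and 917.0 with both agents. MUC5B, a further gel-forming mucin, was the third at 0.36 (another gene covers 39.9% of its exon sequence), and the second was the pseudogene GTF2IRD2P1. Other annotation covers 94.9% of the exon bases of GTF2IRD2P1, so its counts are uncertain. CAPN5 and IL3RA themselves were less alike, at 0.62. These likenesses were ranked over the same libraries that chose the members.

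**Figure D3:**
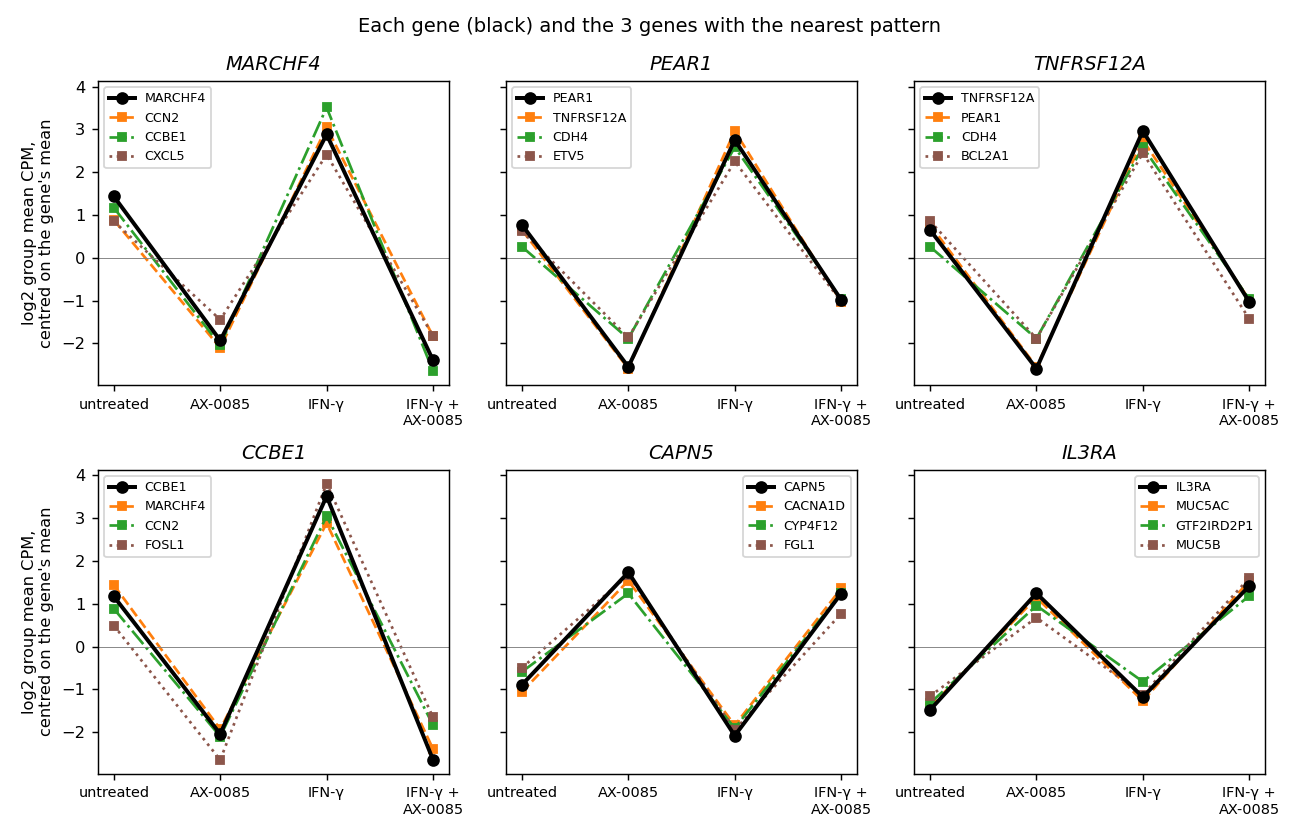
Mean log2 CPM per group, centred on each gene's mean, for each member and its 3 nearest genes over the 4 treatment groups. Lines join the groups only to guide the eye. PEAR1 and TNFRSF12A run almost together, with an RMS difference of 0.19.

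The other genes of the members' families and pathways were taken as 6 lists of 66 genes, of which 47 passed the filter on low counts. The lists were chosen with earlier results of these data known, so the shares and p-values of their genes are not independent support. With AX-0085 alone, 1 of the 47 rose and 7 fell, or 17% against the 12.0% of all genes. With AX-0085 under IFN-γ 8 rose and 10 fell, or 38.3% against 24.8%. Medians of the log2 fold change over all tested genes were 0.01 and 0.03 in these contrasts.

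Of the 9 tested genes of the TWEAK-Fn14 list of TNFRSF12A, 4 fell with AX-0085 alone, against 5.62% of all tested genes, and none rose (median log2 difference −0.79). With AX-0085 under IFN-γ 5 fell, against 8.28% of all tested genes, with a median of −2.02. As the list was chosen with earlier results known, these shares are a description. NFKB2, the precursor of the p52 subunit, had log2 fold changes of −1.18 ± 0.08 with AX-0085 alone (edgeR adjusted p = 5.40e-08) and −2.99 ± 0.08 under IFN-γ (adjusted p = 4.74e-12). RELB, the partner of p52, had −1.39 ± 0.15 and −2.63 ± 0.14. TRAF1, a TRAF adaptor, fell under IFN-γ by 2.31 ± 0.13 (edgeR adjusted p = 6.88e-09), and with AX-0085 alone its value of −0.45 ± 0.17 was within 2-fold. The other genes that fell, named after their values were seen, were MAP3K14, the NF-κB-inducing kinase, at −2.15 and −2.24, and BIRC3, a ubiquitin ligase that acts with TRAFs, at −1.17 and −2.02, with 42.2% and 55.6% of exon bases inside a gene on the other strand. With IFN-γ alone NFKB2, RELB and TRAF1 rose, by 1.88, 1.59 and 2.28 on the log2 scale. The ligand TNFSF12 had at most 2 counts in a library, and another gene covers 87.0% of its exon sequence.

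The genes listed as relatives or ligands of PEAR1 went in both directions. Of those tested, 28.6% were called with AX-0085 alone and 71.4% under IFN-γ, against 12.0% and 24.8% of all tested genes. Of 7 tested genes, MEGF9 rose with AX-0085 alone, by 1.03 ± 0.07 on the log2 scale (edgeR adjusted p = 9.86e-08), and MEGF11 fell by 1.32 ± 0.33 (adjusted p = 0.0043) from counts of 44 and 28 to 9 and 18. Under IFN-γ MEGF6 rose by 2.46 ± 0.14 and MEGF9 by 2.37 ± 0.08, and MEGF11 fell by 2.42 ± 0.28. All 3 are EGF-repeat proteins like PEAR1. IFN-γ alone went the other way, with log2 fold changes of −2.26 for MEGF6, −1.81 for MEGF9 and 1.29 for MEGF11, all called. MEGF6 had 16.4 CPM in untreated cells, 3.44 with IFN-γ and 18.9 with both agents. SCARF1, a scavenger receptor, also rose with AX-0085 under IFN-γ (1.56 ± 0.48, at under 1 CPM) and SVEP1 fell (−1.01 ± 0.16, after 1.19 with IFN-γ alone), named after their values were seen. The call of MEGF9 with AX-0085 alone was lost without the second untreated library (0.98), and that of MEGF11 without the first AX-0085 library (−0.95). MEGF10 had no counts.

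Among the 8 tested relatives of MARCHF4, none was called with AX-0085 alone, against 12.0% of all tested genes. With AX-0085 under IFN-γ 2 of the 8 were called, about the same share as the 24.8% of all tested genes. MARCHF2 rose by 1.39 ± 0.14 in this contrast (edgeR adjusted p = 1.14e-06) and MARCHF8 by 1.08 ± 0.07 (adjusted p = 2.81e-08), and none fell. MARCHF2 had been lower with IFN-γ alone (−1.45, adjusted p = 6.04e-07), and its means were 12.5 CPM untreated, 4.55 with IFN-γ and 11.9 with both agents. MARCHF4 itself had a log2 difference of −5.29 with AX-0085 under IFN-γ. MARCHF11 had no counts.

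Of 7 tested genes of the VEGF-C axis, only FLT4, the VEGF-C receptor, was called with AX-0085 alone, at −1.06 ± 0.14 (edgeR adjusted p = 2.82e-05), and none was called under IFN-γ, where FLT4 stood at −0.31 ± 0.16. Over all tested genes 12.0% and 24.8% were called in these contrasts. The call of FLT4 was lost without the second untreated library (−0.99) or the first AX-0085 library (−0.95). VEGFC, the growth factor that CCBE1 acts on, was added after its values were seen and had 3.42 ± 0.12 CPM untreated, 3.75 ± 0.62 with AX-0085, 9.13 ± 0.46 with IFN-γ and 6.32 ± 0.34 with both agents. It rose with IFN-γ alone by 1.41 ± 0.14 on the log2 scale, and AX-0085 under IFN-γ gave −0.53 ± 0.13 (edgeR adjusted p = 0.00289), within 2-fold. Another gene covers 49.7% of its exon bases.

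Of the 9 tested calpain genes, 11.1% were called with AX-0085 alone and 33.3% under IFN-γ, against 12.0% and 24.8% of all tested genes. CAPN15 fell in both contrasts, to a log2 fold change of −1.62 ± 0.08 alone and −1.09 ± 0.08 under IFN-γ, with 41.6% of its exon bases inside a gene on the other strand. CAPN1, the catalytic subunit of µ-calpain, rose under IFN-γ by 1.66 ± 0.06 (edgeR adjusted p = 1.66e-10), and CAPN8 by 2.75 ± 0.95 at counts of 0 to 12 in a library. CAPN1 had fallen with IFN-γ alone (log2 −1.66), and its means were 208.8 CPM untreated, 66.3 with IFN-γ and 209.2 with both agents. Leaving out 1 library moved the log2 value of CAPN8 between 1.99 and 6.14, and the call of CAPN8 was lost by DESeq2 and without the first library given IFN-γ or both agents, and that of CAPN15 under IFN-γ with scaling by library size alone (−0.97). CAPN5 had a log2 difference of 3.32 ± 0.08 in that contrast.

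CSF2RB, the signalling β chain of the IL-3 receptor, and the ligand IL3 had no counts in any library, which puts them below the floor of 0.0959 to 0.158 CPM. No gene of the 7 tested was called with AX-0085 alone, against 12.0% of all tested genes, and 42.9% were called under IFN-γ, against 24.8%. By the adjusted p alone 2 passed with AX-0085 alone, both within 2-fold. They were CSF2RA, added after its values were seen, at 0.91 ± 0.15 (edgeR adjusted p = 0.000158), and SOCS2 at −0.82 ± 0.10 (adjusted p = 1.24e-05). Under IFN-γ PIM1, a kinase induced by STAT5, fell by 1.55 ± 0.08 (edgeR adjusted p = 3.32e-09), SOCS2 fell by 1.23 ± 0.09 (adjusted p = 8.51e-08) and CISH rose by 1.35 ± 0.20 (adjusted p = 4.41e-05), the last 2 being feedback inhibitors of cytokine receptors. With IFN-γ alone PIM1 had risen by 1.38 on the log2 scale, and its means were 25.9 CPM untreated, 67.7 with IFN-γ and 23.1 with both agents. SOCS2 and CISH were within 2-fold with IFN-γ alone, at 0.68 and −0.73.

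**Figure D4:**
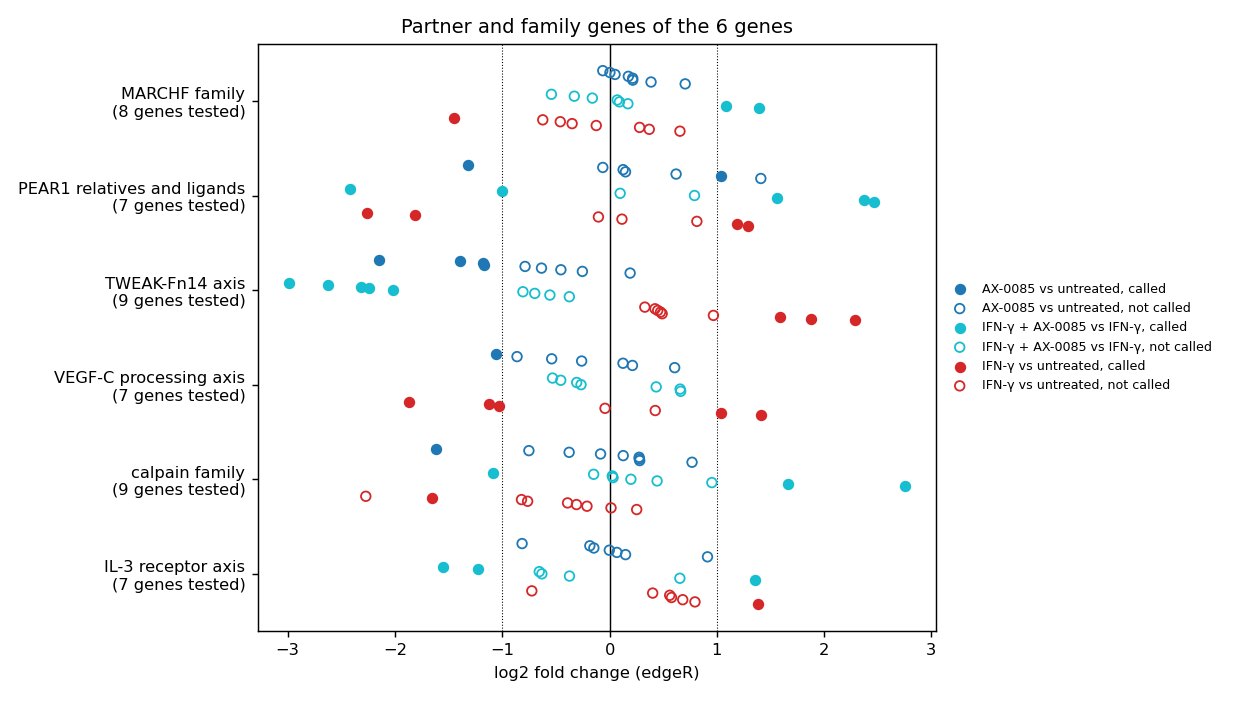
Log2 fold changes of the tested family and pathway genes of the members, by list, for AX-0085 alone and under IFN-γ. The TWEAK-Fn14 genes lie below 0 in 8 of 9 cases with AX-0085 alone and in 9 of 9 under IFN-γ. Over all 6 lists, 23 of 47 genes lie below 0 with AX-0085 alone and 25 of 47 under IFN-γ.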

How the data were processed

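The labels and the study's methods state that A549 poly(A) RNA was made into TruSeq stranded libraries and sequenced paired-end, that reads were trimmed with Trim Galore 0.6.7 and mapped to GRCh38 with STAR 2.7.9a, and that genes were counted with featureCounts. The authors deposited raw counts per gene and library, with no normalization. The annotation release, the strand setting and the treatment of reads with several matches are not given in the sources used here.

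The 6 genes and the family, pathway and marker lists were chosen with earlier results of these data known. From the counts, edgeR 4.0.16 (R 4.3.3, limma 3.58.1) fitted 1 quasi-likelihood model to all 8 libraries in 4 groups, with TMM scaling (factors 0.916 to 1.04), on the 15066 genes that passed filterByExpr of 26065 with a count. Adjusted p-values are Benjamini-Hochberg over all 15066 genes. The script was tested on simulated data. With 2 libraries a group, an exact permutation test of 1 gene cannot go below p = 0.333, so none was used. Libraries of a group differed by more than sampling noise (chi-square per degree of freedom 9.50 to 31.6) and were kept as separate samples. Intervals cover 95%.

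Named genes were the 6 members, family or pathway genes called in an AX-0085 contrast with no overlap between groups or at under 4 counts in every library (at most 3 called genes of each list, those beyond this rule being named in the text as chosen after their values were seen), the 3 genes nearest in pattern to each member, and genes just outside the selection. Alternatives were RLE factors or library size alone, no filter or at least 10 counts in every library, DESeq2 1.42.0, a replicate block and leaving out each library. Promoters came from RefSeq (GRCh38.p14) and gene positions from GENCODE on GRCh38. Part of the leukocyte marker list is not reported here.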

Additional observations from a re-analysis of the deposited data

Results flagged for a closer look

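CCBE1 stood out because every library moved one way with IFN-γ alone and the other way with IFN-γ in the presence of AX-0085. Its log2 fold change was 2.35 without AX-0085 and -0.61 with it, the difference was not tested, because the members were chosen on it, and the second value did not pass the edgeR test (adjusted p = 0.0889).

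For 9 of the 15 family and pathway genes named by the rule, the interaction term of the edgeR model, the difference between the AX-0085 effects with and without IFN-γ, was called at the same thresholds, against 18.6% of all tested genes. These genes were named because they were called in an AX-0085 contrast, so the interaction is not independent of that choice. The interaction was positive (log2) for MEGF6 at 2.31 (adjusted p = 3.09e-07), CAPN1 at 1.38 (adjusted p = 6.37e-08), CISH at 1.35 (adjusted p = 0.00106), MEGF9 at 1.34 (adjusted p = 4.65e-07) and MARCHF2 at 1.18 (adjusted p = 0.000127). It was negative for TRAF1 at -1.86 (adjusted p = 1.53e-05), NFKB2 at -1.81 (adjusted p = 3.32e-08), PIM1 at -1.40 (adjusted p = 7.79e-07) and RELB at -1.23 (adjusted p = 0.000228). MEGF11 (-1.10, adjusted p = 0.0644) and CAPN8 (2.48, adjusted p = 0.104) did not pass, and MARCHF8, FLT4, CAPN15 and SOCS2 had an adjusted p under 0.05 within 2-fold. NFKB2, RELB and TRAF1 belong to the TWEAK-Fn14 list.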

How the results depend on the processing

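Every call of the 6 members with IFN-γ, alone or in the presence of AX-0085, was the same under each alternative run, and their AX-0085 differences kept their direction in 168 of 168 values. The kept direction carries no evidence, because the members were picked for the largest of these differences. 1 uncalled member changed direction, MARCHF4 with IFN-γ in the presence of AX-0085, which ranged from -0.89 to 0.09 when 1 library was left out. Counts over all genes moved more: with at least 10 counts in every library, 245 in place of 530 genes were called for IFN-γ in the presence of AX-0085, 1089 in place of 1812 for AX-0085 alone and 2403 in place of 3733 for AX-0085 under IFN-γ, where fewer genes were tested, and DESeq2 called 336 in place of 530. Scaling by library size alone moved the median log2 fold change of all genes from -0.06 to -0.18 with IFN-γ and from 0.03 to 0.16 for AX-0085 under IFN-γ.

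Direction also changed, with AX-0085 alone, in genes not called in that contrast. Leaving out 1 library gave -0.024 to 0.306 for MEGF6 (lowest without the first AX-0085 library), -0.468 to 1.501 for CAPN8 (lowest without the first untreated library) and -0.107 to 0.0916 for CISH, and CISH was 0.0007 with library size alone and 0.0149 with at least 10 counts in every library. The replicate block, taken from the numbers in the labels, gave 4098 genes called with IFN-γ, 501 with IFN-γ in the presence of AX-0085, 1780 with AX-0085 alone and 3693 with AX-0085 under IFN-γ, and changed no member call. Same-numbered libraries did not deviate together (correlations -0.0738 to 0.0444 over 6 pairs of groups), so the numbers were not taken as pairs. With 2 libraries a group the spread rests on the fit across genes.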
